A study of Mus musculus with 12 samples.

Results

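Hyaluronan is a long, unsulphated sugar chain that fills the space between cells in the skin and swells it with water. Synthases at the cell membrane (Has1, Has2 and Has3) build it from UDP-sugars, hyaluronidases (here Hyal1 and Hyal2) cut it, the cell surface receptor CD44 and the receptor HMMR bind it, and TSG-6, the product of Tnfaip6, joins inflammatory proteins to it. Cuts in the skin are known to raise hyaluronan and CD44, and HMMR is also a protein of the mitotic spindle that is transcribed with other genes of cell division. The 8 genes Has1, Has2, Has3, Hyal1, Hyal2, Cd44, Tnfaip6 and Hmmr were taken by gene name from the probes of 12 expression arrays of mouse skin. They had 13 probes of 39429 distinct probes, 4 for Cd44, 3 for Tnfaip6 and 1 for each of the others, and all 13 passed the filter on dim probes that left 20379 genes. For a gene with several probes the one with the highest mean intensity over both channels and all arrays stands for the gene, and the others are given beside it.

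The mice were C57BL/6 males aged about 8 weeks, and each of 4 groups had 3 arrays of their skin. In the incised groups a sutured cut of 1 cm was injected intradermally after 72 hours with PBS alone or with 100 nmol of a miR-29b mimic, a synthetic stand-in for that microRNA. In the intact groups skin with no cut received PBS or 100 nmol of an inhibitor of miR-29 (antimiR), and all skin was taken 24 hours after the injection. No group received the mimic without a cut or the antimiR with one, so agent and wound cannot be told apart where the effects of the mimic and the antimiR are set against each other. Each array compared skin RNA, labelled with Cy5, with a mouse universal reference RNA, labelled with Cy3. A level below is the log2 ratio of skin over reference, which can be compared between samples for a probe but not between probes.

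The mature miR-29 sequences of the mouse are shown because every agent used here copies or blocks this family. All 3 share the seed (bases 2 to 8, in capitals), and the sequences come from RefSeq (GRCm38.p6).
miR-29a-3p: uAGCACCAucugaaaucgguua
miR-29b-3p: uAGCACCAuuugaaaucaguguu
miR-29c-3p: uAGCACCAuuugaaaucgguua

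Between 64.4% and 73.6% of probes were well above background on an array. Markers of the labelled tissue were present: 6 of 6 markers of differentiating keratinocytes and 8 of 8 fibroblast markers were well above background on all 12 arrays. The labels call the arrays of a group biological replicates. Intact PBS replicate 3 stood apart, with a median correlation of 0.921 to its own group against 0.939 to 0.976 for the other 11 arrays. Its scores for fibroblast markers (-0.57) and wound-activated keratinocyte markers (-1.14), each the median log2 ratio of the markers centred over the 12 arrays, were the lowest of its own group, though mimic replicate 3 had a lower fibroblast score (-0.75) and antimiR replicate 3 a lower keratinocyte score (-1.28). Intact PBS replicate 2 had a hair follicle score of 3.05, against at most -0.033 on the other arrays. The arrays lay on 3 slides: the first held the 3 incised PBS arrays and mimic replicate 1, the second mimic replicates 2 and 3 with intact PBS replicates 1 and 2, and the third intact PBS replicate 3 with the 3 antimiR arrays. Since whole skin was sampled, fewer cells of a type and less RNA per cell cannot be told apart. P-values below are two-sided, from limma fitted to all 12 arrays, and adjusted over all genes by the Benjamini-Hochberg method, with a call under 0.05 and errors of differences given as SE.

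**Figure D1:**
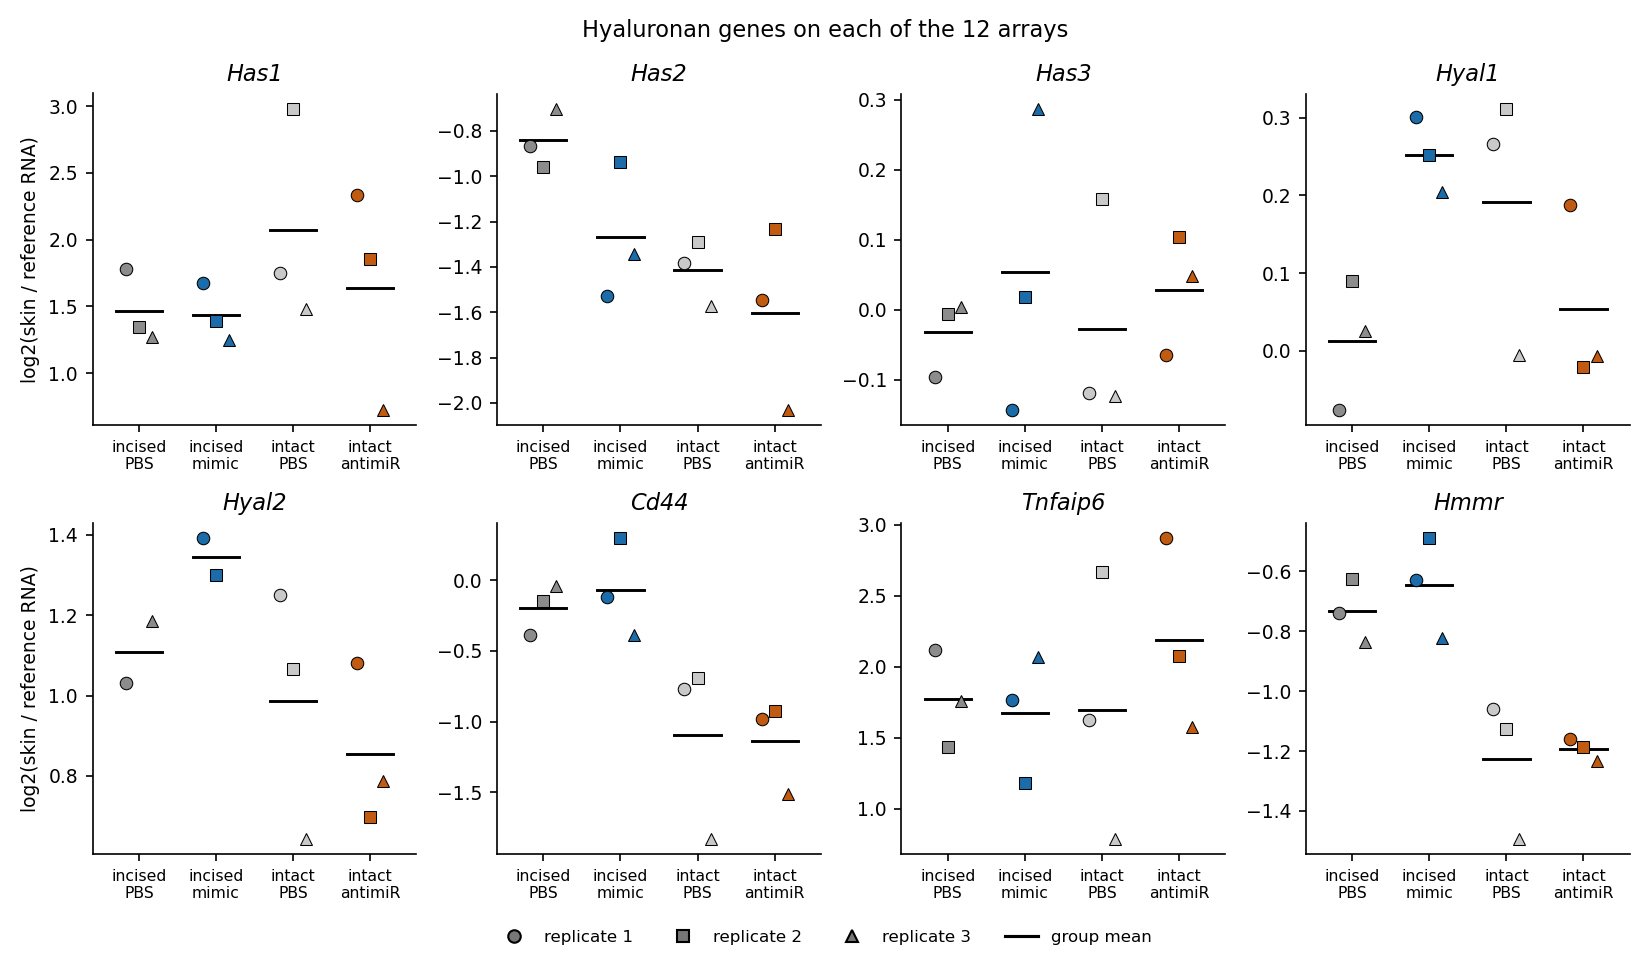
Log2 ratio of skin over reference RNA (y axis, a separate scale for each gene) on every array of the 4 groups (x axis) for the probe that stands for each gene. Points are single arrays, marked by replicate number, and bars are group means. The Hmmr, Cd44 and Has2 values of incised PBS skin all lie above those of intact PBS skin, and Hyal2 lacks a value on 2 arrays.

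Cut skin was first set against intact skin, both under PBS. Hmmr rose and was the only one of the 8 genes called, while Cd44 and Has2, the synthase that makes most dermal hyaluronan, had higher means in cut skin without passing the test. Over all genes 15.4% were called in this comparison and 9.89% were called higher, so 1 of 8 is near the background. The groups did not overlap for 3 of the 8 genes, against 35.2% of all genes. The median difference of the 8 genes, with Has3 at its measured value, was 0.10, against -0.0015 over all genes.

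The Hmmr probe lies at chr11:40515324-40515383 (mm9, minus strand). Its log2 ratios were -0.74, -0.62 and -0.84 in incised PBS skin and -1.06, -1.13 and -1.49 in intact PBS skin. Every array of cut skin was above every array of intact skin, and intact PBS replicate 3 was the lowest of the 12. The difference was 0.49 ± 0.12, a 1.41-fold higher level (limma, adjusted p = 0.0235, n = 3 and 3). Without intact PBS replicate 3 it was 0.36 (limma, adjusted p = 0.0533), and the call was also lost without incised PBS replicate 1 (0.50, adjusted p = 0.0667) or replicate 2 (0.44, adjusted p = 0.0817). With slide as a fixed block it was 0.33 (limma, adjusted p = 0.478). With Cy5 alone it was 0.36 (adjusted p = 0.116), with scaling between arrays 0.71 (adjusted p = 0.092), from the deposited table's values 0.53 (adjusted p = 0.0564), and with only the compared groups in the limma fit the adjusted p was 0.0819.

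The other groups lay close to the PBS group of the same wound state. Mimic-treated incisions gave -0.63, -0.49 and -0.82, which overlapped the incised PBS arrays, and antimiR-treated intact skin gave -1.16, -1.19 and -1.23, inside the range of intact PBS skin. In order of their means the groups were mimic-treated incisions at -0.65 ± 0.17, incised PBS at -0.73 ± 0.11, antimiR-treated skin at -1.19 ± 0.037 and intact PBS at -1.23 ± 0.23 (SD, n = 3 each). The first pair of neighbours and the last pair did not differ beyond their spread, with a mimic difference of 0.087 ± 0.12 (95% interval -0.19 to 0.36) and an antimiR difference of 0.035 ± 0.12 (95% interval -0.24 to 0.31).

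A list of 20 mitotic genes, of which 19 were measured, was read beside Hmmr. By the probe that stands for each gene, all 19 had positive differences in cut skin, with a median of 0.90 against -0.0015 over all genes. Of the 19, 1 was called, against 15.4% of all genes. The probe that stands for Cdk1 gave 0.70 and was not called. Of its other probes, 1 gave 0.47 and was not called, and 1 was called lower at -0.44 (limma over all probes, adjusted p = 0.015). Tpx2, which activates the spindle kinase Aurora A, rose by 1.08 ± 0.32 (limma, adjusted p = 0.0441), while its other probe gave 0.32 and was not called. The motor protein gene Cenpe differed by 1.50 ± 0.49 (adjusted p = 0.0629), Kif20a by 1.00 ± 0.33 (adjusted p = 0.0664) and the mitotic kinase gene Plk1 by 1.06 ± 0.36 (adjusted p = 0.0728, limma throughout). The 1 call became 0 in 10 of 14 alternatives and 4 with the replicate block, and without single arrays there were 5 calls without intact PBS replicate 1, 2 without intact PBS replicate 2 and 0 without each of the other 4 arrays. Without intact PBS replicate 3 the median of the list was 0.33 with 18 of 19 positive, and with slide as a fixed block 0.14 with 16 of 19 positive. In mimic-treated incisions the median was 0.23, again with 19 of 19 positive and none called, and in antimiR-treated skin -0.00098 with 9 of 19 positive and none called. The mimic median was 0.081 without incised PBS replicate 1 and -0.0093 with scaling between arrays, where 9 of 19 were positive. The antimiR median was -0.49 without intact PBS replicate 3, where 0 of 19 were positive and 2 were called, 0.30 without intact PBS replicate 1 and 0.20 without intact PBS replicate 2. With array weights it was -0.35, with scaling between arrays 0.58, and with slide as a fixed block 1.00, where 8 of 19 were called. The list therefore had no settled direction under the antimiR.

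The start of the Hmmr gene is shown because its values moved with those of the mitotic list. The window runs from 250 bases before to 20 bases after the start in RefSeq (GRCm38.p6, chr11:40733418-40733687, minus strand). Capitals mark CCAAT, found here on the other strand as ATTGG, and TTTGAA, the cell cycle homology element.
Hmmr promoter: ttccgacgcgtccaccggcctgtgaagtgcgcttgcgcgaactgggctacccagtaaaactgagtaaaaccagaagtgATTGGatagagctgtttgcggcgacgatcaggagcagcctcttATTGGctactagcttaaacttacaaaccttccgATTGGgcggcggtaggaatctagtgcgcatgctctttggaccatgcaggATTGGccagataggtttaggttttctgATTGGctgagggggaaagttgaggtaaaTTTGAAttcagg
Both motifs are known from genes of cell division, were searched on both strands, and do not overlap here. The CCAAT motif occurred 5 times, starting 172, 129, 96, 47 and 20 bases before the start, and the cell cycle homology element once, 9 bases after it. Of 32851 promoter windows of 300 bases, 37.4% held the CCAAT motif and 17.9% held the cell cycle homology element. Of the 16 mitotic genes with a window, 14 held the first and 11 held the second in any of their windows. These are counts of genes and the shares above are of windows, so they are not directly comparable. Among the other 5 of the 8 hyaluronan genes that had a window, Tnfaip6 held 2 copies of the CCAAT motif, Has1 and Hyal1 1 each, and Hyal2 and Cd44 none, while Has1 alone held the cell cycle homology element. The AP-1 motif (TGAGTCA) was searched too and occurred once, in Tnfaip6, as did the cyclic AMP response element (TGACGTCA), once in Has1, against 5.2% and 1.79% of all windows. A match is a description of letters and not of binding. Hmmr was not the only one of the 8 genes to move with genes of the mitotic list over the arrays. Cd44 and Hyal2, which held neither of the first 2 motifs, did so too. Pearson r was 0.97 for Hmmr with Kif20a, 0.97 for Cd44 with Plk1 and 0.97 for Hyal2 with Top2a, the last over 10 arrays. The part of either motif in these values was not tested.

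The Has2 probe lies at chr15:56497356-56497415 (mm9, minus strand). Incised PBS skin gave -0.87, -0.96 and -0.70, and intact PBS skin gave -1.38, -1.29 and -1.57. The groups did not overlap, and every array of cut skin was above every array of intact skin. The difference was 0.57 ± 0.20 (1.49-fold, limma, adjusted p = 0.0749, 95% interval 0.14 to 1.01), which misses the threshold. With only the compared groups in the fit it passed (limma, adjusted p = 0.0393), and without intact PBS replicate 3 it was 0.49 (adjusted p = 0.171). Mimic-treated incisions gave -1.53, -0.94 and -1.34, of which replicate 2 lay among the incised PBS arrays and the other two below them. The mimic difference was -0.43 ± 0.20 (limma, adjusted p = 0.413, 95% interval -0.87 to 0.0089). Fibroblast marker scores ran 0.12 to 0.56 in incised PBS skin and -0.75 to -0.36 after the mimic, with 2 of 8 markers called lower, and their part in the Has2 values was not tested. AntimiR-treated skin gave -1.55, -1.23 and -2.03, with replicate 3 the lowest of the 12 arrays, and a difference from intact PBS of -0.19 ± 0.20 (limma, adjusted p = 0.622). By mean the order was incised PBS at -0.84 ± 0.13, mimic-treated incisions at -1.27 ± 0.30, intact PBS at -1.41 ± 0.14 and antimiR-treated skin at -1.60 ± 0.40 (SD, n = 3 each), and the ranges of the last 3 overlapped.

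Has1, a synthase induced by cytokines, varied widely within the intact groups. Its probe (mm9, chr17:17980413-17980472, minus strand) gave 1.78, 1.35 and 1.27 in incised PBS skin and 1.67, 1.39 and 1.25 after the mimic, and 1.75, 2.98 and 1.48 in intact PBS skin and 2.33, 1.86 and 0.72 after the antimiR. Intact PBS replicate 2 was highest and antimiR replicate 3 lowest, so the intact groups spanned the incised ones. The incised minus intact difference was -0.60 ± 0.43 (limma, adjusted p = 0.363), the mimic difference -0.028 ± 0.43 (adjusted p = 0.991) and the antimiR difference -0.43 ± 0.43 (adjusted p = 0.599). Without intact PBS replicate 2 the incised minus intact difference was -0.15.

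Has3, the synthase of epidermal keratinocytes, was close to background. Its probe (mm9, chr8:109405354-109405413, plus strand) was well above background on 1 incised PBS array, 1 mimic array, 1 antimiR array and on no intact PBS array, so that it has only a bound in intact PBS skin. It passed the filter on dim probes through these 3 arrays. The bound equals the measured mean of intact PBS skin. In the Cy5 channel alone the normalized mean of incised PBS skin was 0.079 above it on the log2 scale, a value that makes no use of the reference channel. Incised PBS skin was itself dim on most arrays, so this is not a lower limit of the difference. The test on the ratios gave no call (limma, adjusted p = 0.983). The log2 ratios ran from -0.14 on mimic replicate 1 to 0.29 on mimic replicate 3, so 1 group spanned all 12 arrays.

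Hyal1 and Hyal2 are neighbours on chromosome 9 in mm9, and their products cut hyaluronan in lysosomes and at the cell surface. Hyal1 (chr9:107481893-107481952, plus strand) gave -0.077, 0.090 and 0.025 in incised PBS skin and 0.30, 0.25 and 0.20 after the mimic. The mimic arrays all lay above the incised PBS arrays, with a difference of 0.24 ± 0.099 (1.18-fold, limma, adjusted p = 0.358), which was not called. Intact PBS skin gave 0.27, 0.31 and -0.0057 and antimiR-treated skin 0.19, -0.021 and -0.0066, which overlapped, with a difference of -0.14 ± 0.099 (adjusted p = 0.446), and an incised minus intact difference of -0.18 ± 0.099 (limma, adjusted p = 0.249). The mimic effect minus the antimiR effect was 0.38 ± 0.14 (limma, adjusted p = 0.247), and 1.09% of all genes but none of the 8 were called in that comparison, 0.624% higher and 0.466% lower. The unadjusted p was under 0.05 for 1 of the 8, Hyal1, against 2877 of 20365 genes. None of the 13 probes was called there either, against 1.53% of all probes.

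Hyal2 (chr9:107474949-107475008, plus strand) had no value on incised PBS replicate 2 and mimic replicate 3, where its spots were marked as outliers and left out of the fit. The other arrays gave 1.03 and 1.18 in incised PBS skin, 1.39 and 1.30 after the mimic, 1.25, 1.07 and 0.64 in intact PBS skin and 1.08, 0.70 and 0.79 after the antimiR. The mimic arrays were above the incised PBS arrays, with a difference of 0.24 ± 0.20 over 2 arrays a group (limma, adjusted p = 0.705). The incised minus intact difference was 0.12 ± 0.18 (adjusted p = 0.691) and the antimiR difference -0.13 ± 0.16 (adjusted p = 0.69). Hyal1 and Hyal2 were the 2 of 8 genes whose groups did not overlap under the mimic, against 24.2% of all genes. Groups of 2 arrays, as for Hyal2, separate more easily than groups of 3, so Hyal2 is not strictly comparable with this share under the mimic. None of the 8 was called by limma in that comparison, against 0.589% of all genes. The unadjusted p was under 0.05 for 1 of the 8, Hyal1, against 2546 of 20374 genes, so 1 of 8 is at the background.

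Tnfaip6 encodes TSG-6, which moves heavy chains of inter-alpha-inhibitor onto hyaluronan. The brightest of its 3 probes (mm9, chr2:51912073-51912132, plus strand) gave 1.63, 2.67 and 0.78 in intact PBS skin and 2.91, 2.07 and 1.58 after the antimiR. Intact PBS replicate 3 was the lowest of the 12 arrays and intact PBS replicate 2 among the highest, and the groups overlapped. The antimiR difference was 0.49 ± 0.46 (limma, adjusted p = 0.57), and it was 0.038 without intact PBS replicate 3 and 0.98 without intact PBS replicate 2. Incised PBS skin gave 2.12, 1.44 and 1.76 and mimic-treated incisions 1.77, 1.18 and 2.07, with an incised minus intact difference of 0.078 ± 0.46 and a mimic difference of -0.10 ± 0.46 (limma, adjusted p = 0.927 and 0.963). The other probes gave antimiR differences of 0.32 ± 0.43 and 0.097 ± 0.23, the last from a dim probe that was well above background on 11 of 12 arrays, and no probe of Tnfaip6 was called in any comparison.

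**Figure D2:**
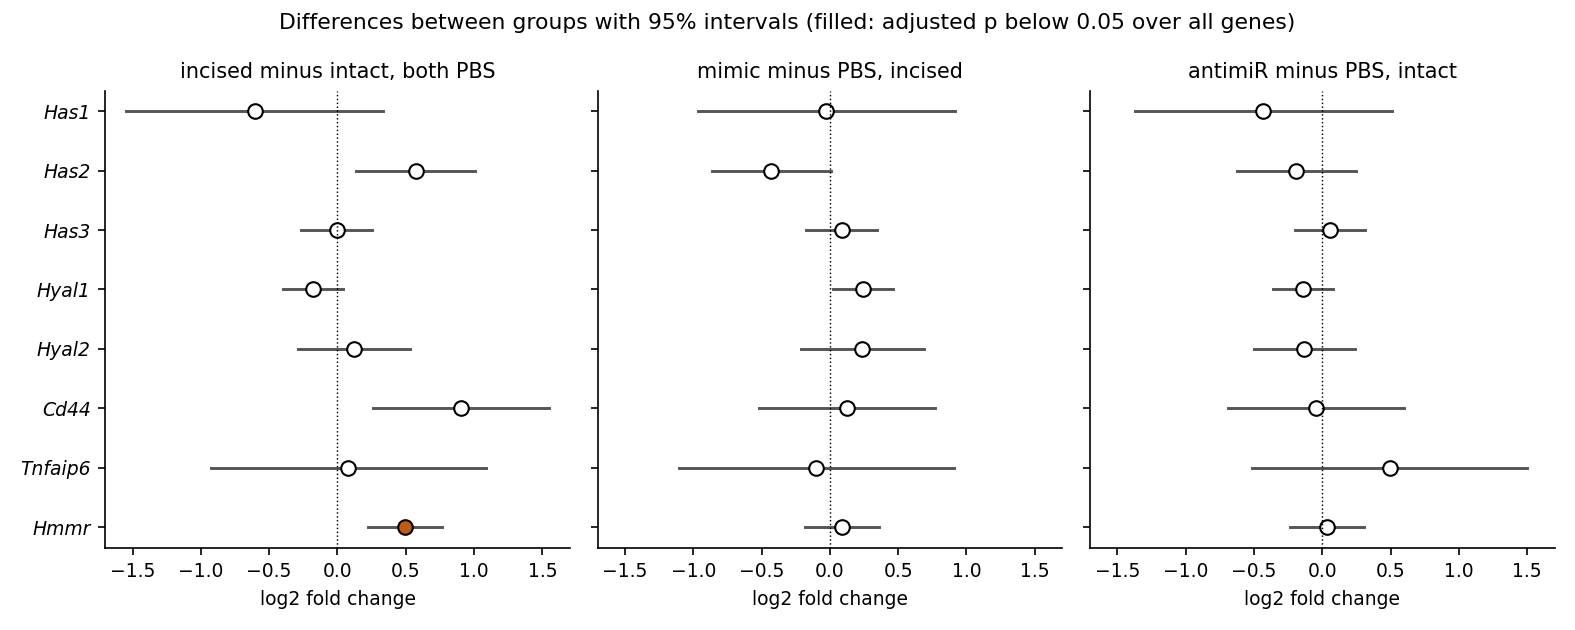
Log2 fold change (x axis) of the 8 genes (y axis) in 3 comparisons, with 95% intervals from limma as lines. A filled point has an adjusted p below 0.05 over all genes, which holds for Hmmr in incised against intact skin alone. The Has1 and Tnfaip6 intervals are the widest. Has3 was near background, so its point is not a measured fold change.

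Cd44 is the main surface receptor of hyaluronan, and its transcript gains or loses variable exons by splicing, with long forms typical of epithelial cells. Its 4 probes lie in transcript order in the variable region (positions 1777 and 1965 of the transcript), at the end of the coding sequence (2614) and in the 3′ untranslated region (5494). In mm9 they are chr2:102677971-102678030, chr2:102672645-102672704, chr2:102654278-102654337 and chr2:102651398-102651457, all on the minus strand of chromosome 2. The 3 coding probes are shown since the results below differ between them. Capitals mark the stop codon, after which the rest of that probe is left out.
Cd44 variable region 1: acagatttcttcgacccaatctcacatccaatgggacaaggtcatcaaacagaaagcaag
Cd44 variable region 2: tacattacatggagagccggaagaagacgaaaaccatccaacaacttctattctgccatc
Cd44 3′ coding end: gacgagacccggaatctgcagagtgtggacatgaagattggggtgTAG

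The 3′ coding probe had the highest mean intensity over both channels and stands for the gene, although in Cy5 the 3′ untranslated probe was brighter on all 12 arrays (32.7 to 124 against 24.3 to 86.7 times the local background). It gave -0.39, -0.15 and -0.043 in incised PBS skin and -0.77, -0.69 and -1.83 in intact PBS skin, groups that did not overlap. The difference was 0.90 ± 0.29 (1.87-fold, limma, adjusted p = 0.0605, 95% interval 0.26 to 1.55), just over the threshold. It was 0.53 without intact PBS replicate 3, the lowest array, and 1.11 without intact PBS replicate 2, where it was called (limma, adjusted p = 0.0406). The variable region probes differed by 0.66 ± 0.24 and 0.26 ± 0.21 and the 3′ untranslated probe by 0.62 ± 0.29, none called over all probes, against 15.4% of probes.

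Mimic-treated incisions gave -0.12, 0.30 and -0.39 at the 3′ coding probe, on both sides of the incised PBS arrays, with a difference of 0.12 ± 0.29 (limma, adjusted p = 0.921). AntimiR-treated skin gave -0.98, -0.92 and -1.51, within the range of intact PBS skin, with a difference of -0.043 ± 0.29 (adjusted p = 0.953, 95% interval -0.69 to 0.60). None of the 8 genes was called under the antimiR, where 9.75% of all genes were, and no gene's groups were free of overlap, against 25.8% of all genes. The unadjusted p was under 0.05 for 0 of the 8, against 4912 of 20369 genes.

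Under the antimiR both probes in the variable region had lower means, and variable region 1 was called. Variable region 1 gave 0.19, 0.29 and -0.76 in intact PBS skin and -0.78, -0.93 and -1.10 after the antimiR. Replicates 1 and 2 of intact PBS skin stood well above every antimiR array, while replicate 3 lay just above the highest of them. The difference was -0.85 ± 0.24 (limma over all probes, adjusted p = 0.0443), a call against 11.4% of all probes. Variable region 2 gave 0.76, 0.83 and 0.16 and 0.12, 0.022 and -0.32, with a difference of -0.64 ± 0.21 (limma, adjusted p = 0.082). The 3′ untranslated probe gave 1.56, 1.47 and 0.32 and 1.30, 1.32 and 0.88, with a difference of 0.050 ± 0.29 (adjusted p = 0.939). The call at variable region 1 was lost when any array but intact PBS replicate 3 was left out, with differences of -0.93 to -0.65 (adjusted p = 0.0688 to 0.134, limma), and within the third slide the difference was -0.18. It was also lost in 6 of 12 processing alternatives, with limma differences of -0.88 (adjusted p = 0.0564) with no background correction, -0.70 (adjusted p = 0.209) with scaling between arrays, -0.76 (adjusted p = 0.0752) with slide as a random block and -0.18 (adjusted p = 0.591) as a fixed block, and at the same difference with no filter on dim probes (adjusted p = 0.0512) or only the compared groups in the fit (adjusted p = 0.159).

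All 4 probes had the lowest level of their group on intact PBS replicate 3, so probes were also set against each other within each array, a comparison chosen after their values were seen. Variable region 1 minus the 3′ untranslated probe was -1.37, -1.18 and -1.08 in intact PBS skin and -2.08, -2.25 and -1.98 after the antimiR. The antimiR arrays were the 3 lowest of the 12, well apart from the rest, and the difference was -0.90 ± 0.12. It was called in a limma fit of the first against the last probe of 2588 transcripts whose probes lay at least 500 bases apart (adjusted p = 0.000153). In that fit 25.7% of transcripts were called, 608 lower and 57 higher, and the median difference was -0.17. The median over all transcripts, centred over the arrays, was -0.19 to -0.17 on the antimiR arrays and -0.030 to 0.11 on the other 9, so the first probes of transcripts were lower in general in this group, and the part of this in the Cd44 value was not tested. A difference as low as that of Cd44 or lower was seen in 84 of the 2588 transcripts, 3.25%. The Cd44 difference kept its direction and its call under each of the 8 alternatives run on it and without each of the 6 arrays in turn (-0.97 to -0.82), and with slide as a fixed block, which rests on the third slide, it was -1.02 (limma, adjusted p = 0.00252).

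In incised skin the same within-array value was -1.13, -1.12 and -1.27 under PBS and -0.74, -0.97 and -0.91 after the mimic. The mimic arrays were the 3 highest of the 12 and did not overlap incised PBS skin, but the difference of 0.30 ± 0.12 was not called (limma, adjusted p = 0.524), where 0.0773% of transcripts were. The mimic effect minus the antimiR effect was 1.19 ± 0.16 (limma, adjusted p = 0.00109), against 9.82% of transcripts called, and with scaling between arrays 0.68 (adjusted p = 0.147). Incised against intact PBS skin gave 0.036 ± 0.12 (limma, adjusted p = 0.855), where 20.8% of transcripts were called. Set against the 3′ coding probe within arrays, variable region 1 was 1.00 ± 0.058 in intact PBS skin and 0.20 ± 0.21 after the antimiR, and variable region 2 was 1.68 ± 0.27 and 1.08 ± 0.12 (SD, n = 3 each), with no overlap in either (exact permutation test, p = 0.1 for each, the smallest that 3 against 3 arrays can give). In incised PBS skin these values were 0.76 ± 0.074 and 1.03 ± 0.13, also below intact PBS skin without overlap (exact permutation test, p = 0.1 for each). The 3′ untranslated probe minus the 3′ coding probe was 2.21 ± 0.099 in intact PBS skin, 2.30 ± 0.073 after the antimiR, 1.93 ± 0.055 in incised PBS skin and 1.68 ± 0.087 after the mimic (SD, n = 3 each). It was lower in incised than in intact PBS skin and lower after the mimic than in incised PBS skin, both without overlap (exact permutation test, p = 0.1 for each), so all 3 other probes were lower against the 3′ coding probe in cut skin. Under the mimic variable region 1 minus the 3′ coding probe differed by 0.042 (exact permutation test, p = 0.8), against -0.25 for the 3′ untranslated probe. Of 15 such tests, 6 of the 9 on Cd44 and 0 of the 6 on Tnfaip6 gave the smallest p of 0.1, which cannot give an adjusted p under 0.05.

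The variable region probes were dim, with Cy5 signals 2.59 to 13.0 and 2.03 to 7.37 times the local background, far below the 3′ probes. Esrp1 and Esrp2, splicing factors that keep variable exons of Cd44 in epithelial cells, are named here after the values were seen and differed under the antimiR by -0.084 ± 0.17 and 0.11 ± 0.37 (limma, adjusted p = 0.82 and 0.902). Scores of basal keratinocyte markers ran -0.17 to 0.17 in intact PBS skin and -0.41 to -0.053 after the antimiR, with 0 of 6 markers called by limma, and their part in the Cd44 values was not tested.

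**Figure D3:**
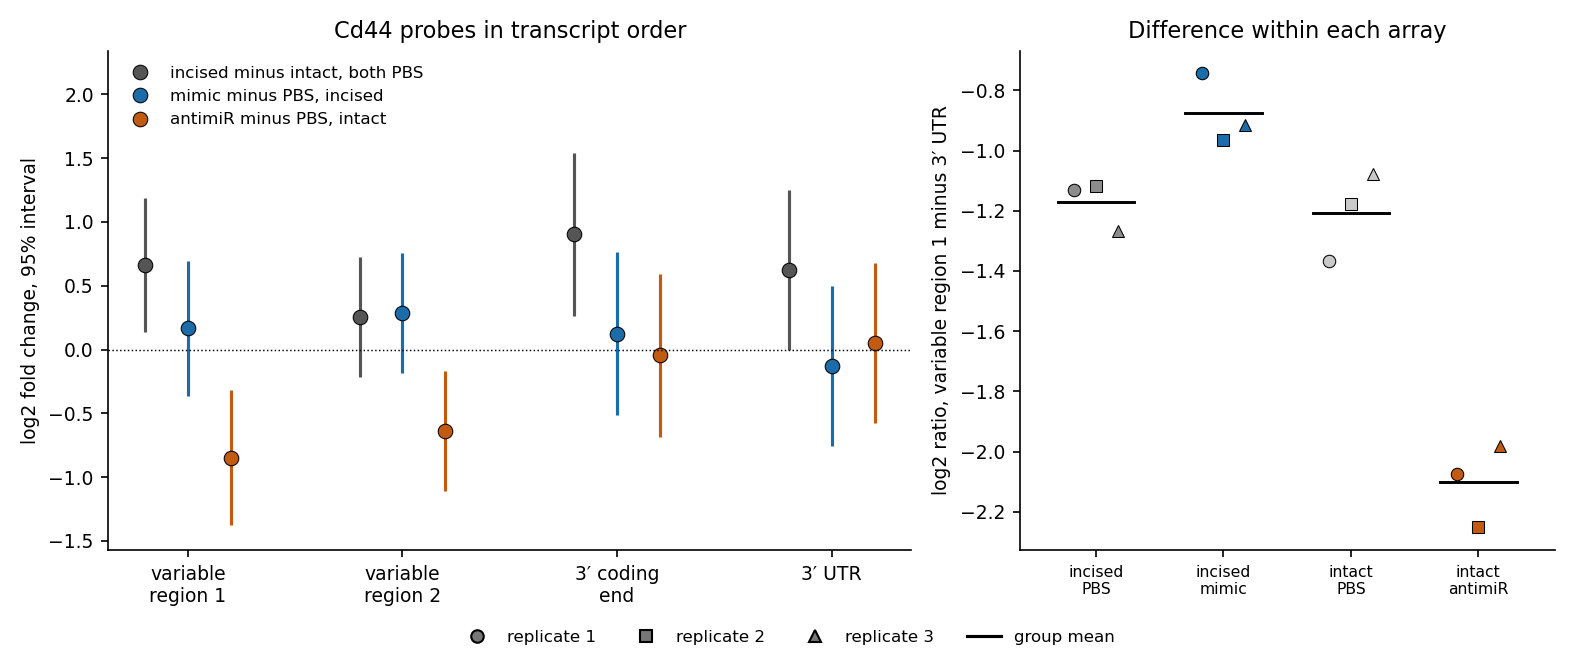
Left, log2 fold change with the 95% interval from limma (y axis) for the 4 Cd44 probes in transcript order (x axis) in 3 comparisons. Right, the log2 ratio of variable region 1 minus that of the 3′ untranslated probe (y axis) on each array of the 4 groups (x axis), with bars at group means. The antimiR differences lie below 0 in the variable region and near 0 at the 3′ probes, and the 3 antimiR arrays are the lowest on the right, between -2.25 and -1.98.

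Other genes of the pathway were read from lists chosen for their known roles. Of 11 genes that make the UDP-sugar precursors, 3 fell and 1 rose under the antimiR, against 4.47% and 5.27% of all genes, with a median of -0.35 against 0.011 over all genes. Gfpt2, which starts the hexosamine pathway, fell by 1.24 ± 0.22 on the log2 scale (limma, adjusted p = 0.00715). Gfpt2 lacked a value on 1 intact PBS array, so its SE was 0.22 here and in cut skin, against 0.19 under the mimic. The hexosamine enzyme genes Pgm3 (-0.47 ± 0.12, adjusted p = 0.0346) and Gnpnat1 (-0.57 ± 0.15, adjusted p = 0.0371) also fell, but the second probe of each gave -0.087 and -0.042 and was not called. The hexokinase gene Hk1 rose by 0.34 ± 0.088 (limma, adjusted p = 0.0363), with its other probes at 0.19 and -0.25 and not called. The list held 4 calls, 2 without intact PBS replicate 2 or 3 and 1 without antimiR replicate 1 or 3, 1 with Cy5 alone, with the mean over probes or with slide as a fixed block, and in the deposited table there was none. In cut skin Gfpt2 was the only gene of the list called, at -0.83 ± 0.22 (limma, adjusted p = 0.0306). The probe that stands for Ugp2 gave -0.58 there and was not called, but its other probe was called lower at -0.66 (limma over all probes, adjusted p = 0.0359). None of the 11 was called under the mimic, where the phosphoglucomutase gene Pgm1 had the smallest p at -0.74 ± 0.15 (limma, adjusted p = 0.0661).

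Most of the measured genes that degrade or clear hyaluronan rose in cut skin, while the others had negative differences that were not called. The lowest of these was the hyaluronan receptor gene Lyve1, at -1.18 ± 0.44 (limma, adjusted p = 0.0921). Of 13 listed, 8 were measured and 5 rose, against 9.89% of all genes, with a median of 0.59 against -0.0015. Among them were Gusb (beta-glucuronidase, 0.78 ± 0.15, adjusted p = 0.00726), the clearance receptor gene Stab1 (1.09 ± 0.27, adjusted p = 0.0234), Cemip2, which encodes a surface hyaluronidase (0.66 ± 0.17, adjusted p = 0.0252), and Hexa, which encodes a subunit of a lysosomal enzyme (0.80 ± 0.21, adjusted p = 0.0265, limma throughout). Several of these are also expressed by macrophages, whose marker scores ran 0.34 to 0.45 in incised and -0.95 to -0.16 in intact PBS skin with 5 of 8 markers called higher. Scores of wound-activated keratinocytes ran 0.33 to 0.89 and -1.14 to 0.18 with 2 of 6 called higher. Neutrophil scores ran 0.080 to 0.36 and -0.68 to -0.40 with 2 of 7 called higher, and the part of these cell types in these results, or in those of Hmmr, Cd44 and Has2, was not tested. The 5 calls were 1 without any one of the incised PBS arrays, 3 without intact PBS replicate 1, 2 without intact PBS replicate 3, and 2 with Cy5 alone or with scaling between arrays. With slide as a fixed block there were none and the median was 0.27, and with no filter on dim probes the median of 13 genes was -0.018.

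None of these 8 was called under the mimic. Under the antimiR 1 of the 8 was called lower and 1 higher, against 4.47% and 5.27% of all genes, with a median of -0.13 against 0.011. Lyve1, the hyaluronan receptor of lymphatic vessels, fell by 1.74 ± 0.44 on the log2 scale (limma, adjusted p = 0.0318). Gusb (0.47) and Hexa (0.65) were not called, but the other Gusb probe was called higher at 0.55 (limma over all probes, adjusted p = 0.00529). By gene there was no call in the list under the antimiR without intact PBS replicate 1 or antimiR replicate 3, with slide as a fixed block, or with only the compared groups in the fit. Of 4 lymphatic markers that do not include Lyve1, 1 was measured, and it was called higher under the antimiR with a difference of 0.86, and its part in the Lyve1 value was not tested.

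Of the 14 measured genes of 19 that bind hyaluronan in the matrix or are joined to it by TSG-6, 1 was called higher under the mimic and 1 in cut skin, against 0.201% and 9.89% of all genes. Ambp, which encodes the light chain of inter-alpha-inhibitor, rose by 1.14 ± 0.17 under the mimic (limma, adjusted p = 0.0233), and Ptx3, a pentraxin that cross-links hyaluronan with TSG-6, rose by 1.10 ± 0.20 in cut skin (limma, adjusted p = 0.00559). The large proteoglycan gene Vcan differed by 0.33 ± 0.34 under the mimic (adjusted p = 0.77), and none of the 14 was called under the antimiR. There was no call under the mimic without any one of the incised PBS arrays or without mimic replicate 2, and none in the deposited table. The medians were 0.052 in cut skin, 0.013 under the mimic and -0.067 under the antimiR.

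Of 15 genes that act on or with CD44, all measured, 6 rose in cut skin, against 9.89% of all genes, with a median of 0.41. Mmp9, a gelatinase that docks on CD44, rose by 2.21 ± 0.33 (limma, adjusted p = 0.00239), the membrane-cytoskeleton linker gene Msn by 0.76 ± 0.15 (adjusted p = 0.00854), the CD44 ligand gene Spp1 by 0.41 ± 0.089 (adjusted p = 0.0134) and Adam10, which sheds CD44, by 0.68 ± 0.16 (adjusted p = 0.0234). Srgn and Tlr2 were also called. Several of these genes are expressed by leukocytes, and the macrophage and neutrophil markers given above moved with them, with 5 of 8 and 2 of 7 called higher, and their part here was not tested. There were 3 calls without incised PBS replicate 1, 2 with scaling between arrays, 3 with Cy5 alone, 2 with only the compared groups in the fit and none with slide as a fixed block, where the median was -0.054. The probe that stands for Rdx gave -0.026 in cut skin, but its other probe was called lower there at -0.65 (limma over all probes, adjusted p = 0.00564). Under the antimiR Msn (0.61 ± 0.15, adjusted p = 0.0299) and Mmp14 (0.71 ± 0.19, adjusted p = 0.04) rose and Rdx, a linker of the same family as Msn, fell (-0.38 ± 0.091, adjusted p = 0.0245, limma), while its other probe gave -0.15 and was not called. There was no such call without intact PBS replicate 3 or antimiR replicate 1 or 2, or with scaling between arrays. None of the 15 was called under the mimic.

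Of 19 factors known to induce hyaluronan synthases or TSG-6, all measured, 5 rose and 2 fell in cut skin, against 9.89% and 5.53% of all genes. Il1b rose by 2.49 ± 0.54 (limma, adjusted p = 0.0131), Tgfb1 by 0.52 ± 0.083 (adjusted p = 0.00345) and Pdgfb by 0.43 ± 0.092 (adjusted p = 0.0116), with the other Pdgfb probe at -0.18, and the epidermal growth factor family gene Ereg fell by 2.04 ± 0.40 on the log2 scale (adjusted p = 0.0084). Pdgfa and Il6 also rose and Egf also fell. The 7 calls were 4 without incised PBS replicate 1 or 3, 3 with scaling between arrays and 0 with slide as a fixed block. Under the antimiR Il1b (2.33 ± 0.54, adjusted p = 0.0233) and Tnf (0.86 ± 0.20, adjusted p = 0.0238) rose, 2 of 19, against 5.27% of all genes, with no call left without antimiR replicate 2. In cut skin 5 of 8 macrophage and 2 of 7 neutrophil markers were called higher, and under the antimiR 3 of 8 and 1 of 7. Macrophage scores after the antimiR ran -0.69 to 0.098, which overlapped intact PBS skin at -0.95 to -0.16. Neutrophil scores ran -0.66 to 0.021 and overlapped too, at -0.68 to -0.40 in intact PBS skin. The part of these cells in either rise of Il1b was not tested. Egf fell by 0.85 ± 0.13 on the log2 scale under the mimic, the only call of the list there (limma, adjusted p = 0.0258), where 0.388% of all genes were called lower, and there was none when any array but mimic replicate 3 was left out. The comparison of cut with intact skin shares its control arrays with that of the antimiR and its incised PBS arrays with that of the mimic.

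**Figure D4:**
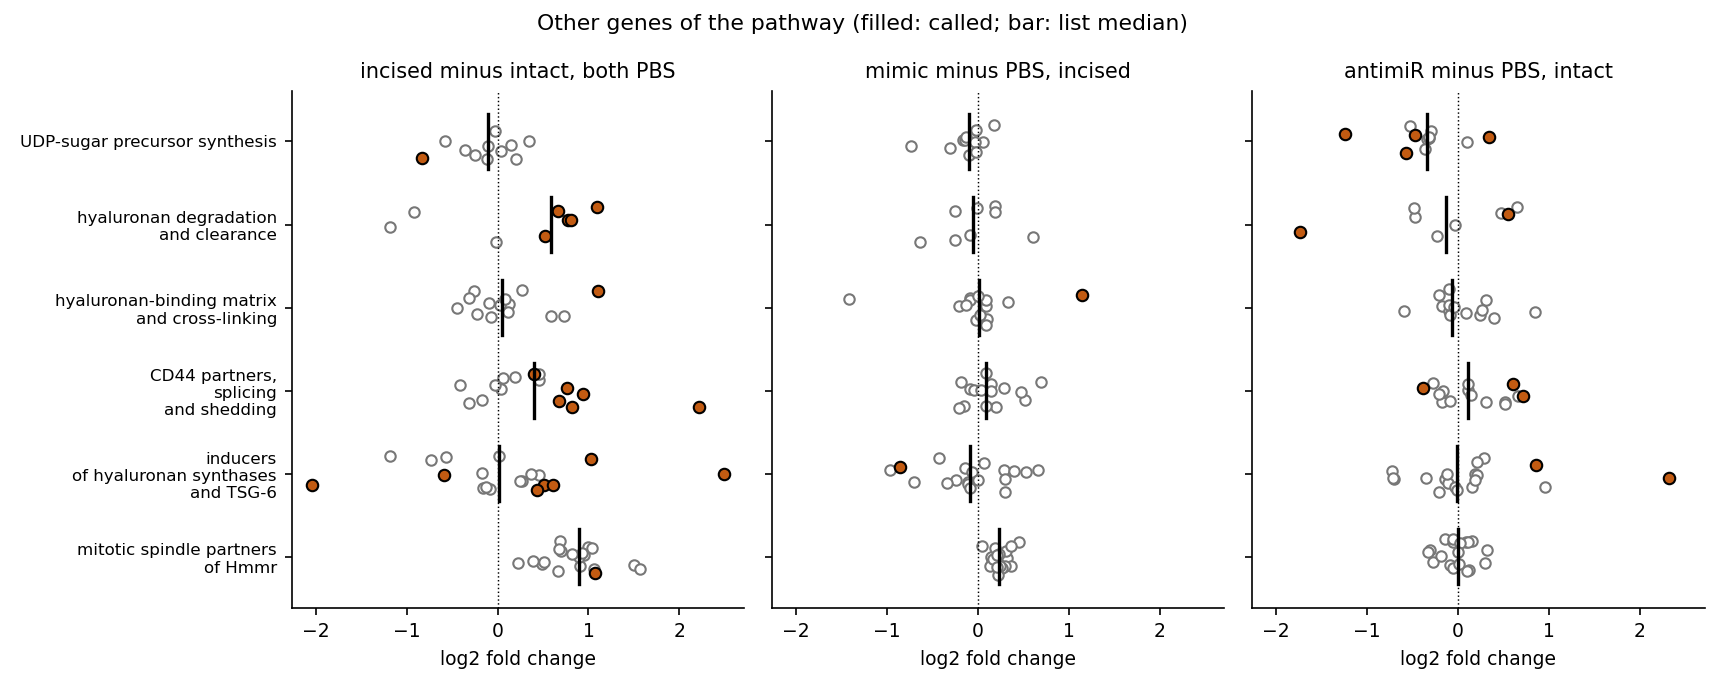
Log2 fold change (x axis) of the measured genes of 6 lists (y axis) in 3 comparisons. Each point is a gene, filled where limma's adjusted p over all genes is below 0.05, and black bars are list medians. The mitotic genes lie to the right of 0 in cut skin, with a median of 0.90, though 1 of 19 is filled.

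Over the 12 arrays the log2 ratios of Hmmr and Cd44 rose and fell together (Pearson r = 0.95), as did those of Cd44 and Hyal2 (r = 0.82), Hyal2 and Hmmr (r = 0.81), Cd44 and Has2 (r = 0.73), Hyal1 and Hyal2 (r = 0.72), Has1 and Tnfaip6 (r = 0.68) and Has2 and Hmmr (r = 0.61), with pairs of Hyal2 over 10 arrays. All other pairs were below these. These correlations are descriptions over arrays that share a reference and fall into 4 groups, and they were not adjusted for group. Over 15221 genes with a value on each array, the genes most like Hmmr were Hnrnpc (r = 0.98), Cenpl (r = 0.98), Kif20a (r = 0.97), and those most like Cd44 were Cap1 (r = 0.98), Atf7ip (r = 0.97), Plk1 (r = 0.97). For Has2 they were Ccser1 (r = 0.93), Tram2 (r = 0.93), D7Ertd143e (r = 0.90), and for Has1 Prkg1 (r = 0.94), Esrrg (r = 0.90), Rab11fip5 (r = 0.89). For Tnfaip6 they were Tfrc (r = 0.93), Entpd1 (r = 0.85), Adamtsl2 (r = 0.84), for Hyal1 Rpl7l1 (r = 0.88), Exosc6 (r = 0.88), Ccdc115 (r = 0.85), and for Hyal2, over the 10 arrays with a value, Pbk (r = 0.97), Top2a (r = 0.97), Vps45 (r = 0.96). For Has3, which was near background, they were Pelp1 (r = 0.81), Capn12 (r = 0.79), DXErtd223e (r = 0.78).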

How the data were processed

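RNA of 12 skin samples was measured on two-colour Agilent arrays with Cy5 for skin and Cy3 for the reference. Per the file headers, the deposited scanner files gave spot and background brightness as intensity, processed intensity and a log10 ratio of Cy5 over Cy3, extracted by Agilent Feature Extraction 11.5.1.1 with probe positions in mm9. The authors also deposited a table of log2 ratios by gene name. Here intensities were background corrected (normexp, offset 50) and loess-normalized within arrays in limma 3.58.1 (R 4.3.3), control spots had weight 0 and outlier spots were left out. The filter on dim probes asked for Cy5 signal well above background on 3 or more of the 12 arrays, which 27154 named probes passed, and 1682 that passed without a gene name were left out. limma was fitted to all 12 arrays with group means. A second fit used the first minus the last probe of a transcript, and exact permutation tests were run on Cd44 and Tnfaip6 probes within arrays. The gene fit was tested on simulated data for the mimic, antimiR and cut against intact comparisons. The second fit, the permutation tests and the mimic minus antimiR effect were not tested in this way. The genes named are the 8 chosen genes, up to 4 of smallest p in each list and comparison, and the 3 genes most correlated with each of the 8. Outside this rule Tlr2 and Pdgfa, both called in cut skin, and the splicing factor genes Esrp1 and Esrp2 are also named. The values of 1 listed gene are not reported here. The genes and lists were chosen with earlier results of these data known. Replicate numbers are in the labels, and the number of arrays limits the precision. Alternatives covered background, normalization, channel, source of values, filter, probe choice, variance model, weights, slide, replicate number and single arrays.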

Additional observations from a re-analysis of the deposited data

Results flagged for a closer look

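The Cd44 value of variable region 1 minus the 3′ untranslated probe differed between the agents. The mimic effect minus the antimiR effect was 1.19 on the log2 scale by a test of that difference itself (limma over 2586 transcripts, adjusted p = 0.00109), with 0.30 for the mimic in cut skin and -0.90 for the antimiR in intact skin. In that test 9.82% of transcripts were called, 240 higher and 14 lower. Under the antimiR the first probes of transcripts were lower in general, with a median difference of -0.17 and 608 of 2588 transcripts called lower. The part of this in the Cd44 value was not tested. Against the 3′ coding probe, variable region 1 differed by 0.042 under the mimic and -0.80 under the antimiR, and the 3′ untranslated probe by -0.25 and 0.093. With scaling between arrays the mimic effect minus the antimiR effect was 0.68 (adjusted p = 0.147, limma). Agent and wound state cannot be told apart here, and the comparison was chosen after the values were seen.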

How the results depend on the processing

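Of the 8 genes, 1 was called in cut against intact skin, and 0 with slide as a fixed block, in the deposited table, with Cy5 alone or with scaling between arrays, 2 with the replicate block (Hmmr and Cd44), and 0 to 2 without single arrays. Over all genes the 120 mimic calls were 38 with processed signals, 6 with scaling, 48 with Cy5 alone, 16 with the deposited table, 437 with only the compared groups, 69 with a trend and robust variance, 711 with array weights, 0 with a fixed slide block and 58 with a random slide block, and 1 to 53 without single arrays. The 1985 antimiR calls were 823 with scaling, 1266 with Cy5 alone and 539 with only the compared groups, and 1096 to 2089 without single arrays, the 3141 calls in cut skin were 1265 with scaling, 1713 with Cy5 alone, 1360 with only the compared groups and 11 with a fixed slide block, and 1689 to 2960 without single arrays, and the 222 calls of the mimic minus antimiR effect were 369 with processed signals, 19 with scaling, 75 with Cy5 alone, 359 with the deposited table, 450 with array weights, 17 with a fixed slide block and 125 with a random slide block, and 64 to 414 without single arrays. Same-numbered samples did not deviate together (7 of 18 pairs with r over 0.1, range -0.44 to 0.47), and the replicate block gave 76 mimic calls over all genes and a call for Cd44 in cut skin (0.90, limma, adjusted p = 0.0336). Differences of the opposite sign, none of them called, were found as follows, and the cause was not tested. With no background correction they were Has1 0.022 (mimic) and Tnfaip6 other probe -0.0015 (cut against intact). With processed signals they were Has1 0.0021 and Tnfaip6 dim probe -0.032 (mimic), Hmmr -0.032 (antimiR) and Tnfaip6 other probe -0.042 (cut against intact). With scaling between arrays they were Has1 0.25, Tnfaip6 0.22, Hmmr -0.035, Tnfaip6 other probe 0.082 and Cd44 3′ untranslated probe 0.16 (mimic), Has2 0.091, Cd44 0.22 and Cd44 3′ untranslated probe -0.14 (antimiR), Tnfaip6 -0.18 and Tnfaip6 other probe -0.082 (cut against intact) and Cd44 -0.14, Tnfaip6 0.13 and Hmmr -0.35 (mimic minus antimiR effect). With Cy5 alone they were Cd44 variable region 1 minus 3′ untranslated probe -0.19 (cut against intact). In the deposited table they were Has1 0.0021 (mimic), Hmmr -0.032 (antimiR) and Tnfaip6 -0.034 (cut against intact). With array weights they were Has1 0.026 (mimic), Hmmr -0.054, Tnfaip6 dim probe -0.027 and Cd44 3′ untranslated probe -0.18 (antimiR) and Tnfaip6 -0.090 and Tnfaip6 other probe -0.11 (cut against intact). With slide as a fixed block they were Has1 0.21 and Has3 -0.11 (mimic), Has1 0.16, Hyal1 0.059, Hyal2 0.21 and Cd44 0.69 (antimiR), Hyal2 -0.14, Tnfaip6 -0.52, Tnfaip6 other probe -0.26, Cd44 variable region 2 -0.014 and Cd44 variable region 1 minus 3′ untranslated probe -0.096 (cut against intact) and Cd44 -0.62 and Hmmr -0.20 (mimic minus antimiR effect). With slide as a random block they were Cd44 0.063 (antimiR). Without single arrays the ranges that crossed 0 were Has1 -0.15 to 0.13, Has3 -0.030 to 0.19, Cd44 -0.061 to 0.28, Tnfaip6 -0.30 to 0.14 and Tnfaip6 other probe -0.33 to 0.090 (mimic), Has1 -0.78 to 0.026, Has2 -0.37 to 0.024, Hyal2 -0.30 to 0.0012, Cd44 -0.41 to 0.16, Hmmr -0.10 to 0.12, Tnfaip6 other probe -0.11 to 0.78, Tnfaip6 dim probe -0.12 to 0.35 and Cd44 3′ untranslated probe -0.35 to 0.27 (antimiR), Hyal2 -0.051 to 0.25, Tnfaip6 -0.38 to 0.57, Tnfaip6 other probe -0.37 to 0.52, Tnfaip6 dim probe -0.36 to 0.12 and Cd44 variable region 1 minus 3′ untranslated probe -0.043 to 0.10 (cut against intact), Has1 -0.053 to 0.75, Cd44 -0.037 to 0.54 and Hmmr -0.031 to 0.19 (mimic minus antimiR effect). No direction is read from Has3 where intact PBS skin, in which it was not well above background, enters. Its values there were 0.044 with no background correction, 0.42 with processed signals, 0.0018 with scaling between arrays, 0.079 with Cy5 alone, 0.42 in the deposited table, 0.24 with slide as a fixed block, 0.033 with slide as a random block and -0.052 to 0.088 without single arrays (cut against intact), and -0.18 with Cy5 alone, -0.027 with array weights, -0.26 with slide as a fixed block, -0.029 with slide as a random block and -0.087 to 0.13 without single arrays (mimic minus antimiR effect). The Cd44 within-array comparison and its alternatives were chosen after seeing the data. Dim signal limits Has3 and the Cd44 variable region probes.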
